A study of Homo sapiens with 30 samples.

Results

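Cells make cholesterol and fatty acids along parallel routes that share a group of transcriptional activators, the sterol regulatory element-binding proteins (SREBPs). SREBP precursors sit in the membrane of the endoplasmic reticulum bound to SCAP, which carries them to the Golgi for cleavage when membrane sterol is low, whereas INSIG proteins hold the complex back when sterol is plentiful. SREBF2 encodes the form best known for the cholesterol route and SREBF1 the form best known for fatty acid synthesis in liver. Of the 60107 genes counted, 35 belong to these routes as defined here. They were chosen by name, as textbook SREBP targets and regulators, from the rows of the raw count table. The sterol branch held 24 genes, namely 19 that make or bind sterols and their precursors and 5 regulators (INSIG1, INSIG2, SREBF1, SREBF2 and SCAP). The fatty acid branch held 11 genes, from the supply of acetyl-CoA to the first step of glycerolipid assembly.

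The genes were followed in HepG2, an established human liver tumour cell line whose labels name hepatocellular carcinoma and which the study's methods call hepatoblastoma. All 30 cultures were transfected with an oligonucleotide, and 24 h later received either dimethyl sulfoxide (DMSO) or, dissolved in it, the kinase inhibitor sorafenib at 10 µM, a drug for advanced liver cancer. For 6 h of treatment the oligonucleotide was an inhibitor control (IC) or an inhibitor of miR-200c-3p (I200c), and for 24 h it was the control for mimics (MC) or else an imitation of miR-222-5p (M222) or of miR-512-3p (M512). This gives 10 groups of 3 libraries, with no untransfected and no untreated culture among them. Time and the kind of control oligonucleotide changed together, so they cannot be told apart. The study describes its replicates as independent, without saying at which step, and the labels do not tell whether the 3 libraries of a group came from separate experiments. The p-values measure the spread between these cultures, which may in part be technical.

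Reads came from the 3′ end of transcripts (QuantSeq), and the deposited values are raw counts per gene. Total counts per library ran from 3938764 to 9657063. Taking 3 counts as the limit, a count of 0 allows a level of up to 0.311 to 0.762 counts in 1000000 (CPM) of the total. These limits are unscaled, whereas CPM elsewhere are scaled by trimmed mean of M values (TMM). Such limits cover counting error only. All 8 hepatocyte markers looked up were present, with a summed level of 6549 to 13058 CPM over the libraries. Of 8 markers of other cell types, KRT19, a keratin of bile duct cells, was at 301 to 444 CPM as a group mean, whereas the group means of the other 7, including PTPRC of leukocytes and COL3A1 of fibroblasts, stayed at or below 9.84 CPM. At 24 h the TMM factors were lower with sorafenib (0.795 to 1.02) than with DMSO (0.987 to 1.06). If total counts set the scale instead, the middle log2 fold change over all tested genes shifted by -0.107 for MC, -0.105 for M222 and -0.188 for M512, and changes below are relative to TMM. Among the genes called with TMM, 69.5% were higher in MC, 64.3% in M222 and 53.6% in M512, against 50.1%, 47.9% and 29.9% on total counts.

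Not every member could be measured. INSIG1, a sterol-induced retention factor of the SREBP complex, had 1 count over all 30 libraries, in I200c_DMSO (0.123 CPM in replicate 2), and was at 0 in the other 29. ME1, the malic enzyme that supplies NADPH for fatty acid synthesis, had 3 counts in all, in M512_DMSO replicate 2. Whether the annotation behind the counts covers the 3′ ends of INSIG1 and ME1 was not tested, so these near-zero values do not show that the genes were silent. Both were below the filter on low counts, which left 23 of 24 sterol and 10 of 11 fatty acid members in every test. CYP51A1, lanosterol demethylase, passed with 309 counts over the 30 libraries, at 0 to 8.38 CPM. The end of its transcript overlaps 2 genes on the same strand in GENCODE 44 (ENSG00000285772 and ENSG00000289027), neither of them in the count table, so its values are uncertain. EBP ends within such a gene too (ENSG00000286268). ACAT2 ends against the abundant TCP1, SREBF1 against RAI1, and FADS1 against FADS2 on the opposite strand. How the counting treated strand is not given in the sources used here. FDPS has 8 named pseudogenes, IDI1 and CYP51A1 3 each, HSD17B7 2 and SCD 1, with which reads could be shared.

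At 6 h sorafenib left the median of the sterol branch near that of all genes. The median log2 fold change of its 23 members was 0.02 in IC and 0.04 in I200c, beside 0.00167 and 0.00457 over all genes, and 0 members were called lower or higher in either transfection (edgeR, called at an adjusted p under 0.05). At an unadjusted p under 0.05, 1 sterol member was lower and 0 higher in IC (2.21% and 1.57% of all genes), and 0 were lower and 4 higher in I200c (8.28% and 6.99%), while DESeq2 called 0 in both, beside 0.0942% and 2.48% of all genes called lower. The fatty acid branch had a median of -0.05 in IC and -0.09 in I200c. Its 1 call, in I200c, was GPAM, the acyltransferase that starts glycerolipid synthesis from fatty acyl-CoA. Over all genes, 0.00785% were called lower and 0.0314% higher in IC, and 1.37% lower and 0.911% higher in I200c.  All 3 sorafenib libraries lay below all 3 DMSO libraries for 1 of 23 sterol and 2 of 10 fatty acid members in IC (6.34% of all genes), and for 1 and 3 in I200c (8.71%). They lay above for 1 sterol and 0 fatty acid members in IC (6.63%), and for 3 and 0 in I200c (8.54%).

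At 24 h the medians of both branches lay below that of all genes with sorafenib, and 6, 6 and 9 of the 33 members were called lower in MC, M222 and M512, while 19 were called in none of the 3. In the mimic control the median log2 fold change was -0.65 in the sterol branch and -0.55 in the fatty acid branch, beside -0.01 over all genes, and 19 of 23 and 9 of 10 members had a value below 0, as did 50.8% of all genes. In M222 the medians were -0.55 and -0.73, beside -0.03, with 21 and 9 members below 0 (52.2% of all genes). In M512 they were -0.51 and -0.49, beside -0.03, with 20 and 7 members below 0 (51.6%). Sorafenib lowered 4 sterol and 2 fatty acid members in MC, where 0.793% of all genes were called lower and 1.8% higher. It lowered 3 and 3 in M222 (1.56% lower and 2.82% higher over all genes), and 5 and 4 in M512 (4.62% and 5.34%). Members called higher numbered 0 in each of the 5 sorafenib comparisons by edgeR and by DESeq2. At an unadjusted p under 0.05, 18 of the 33 members were lower in MC, 18 in M222 and 14 in M512, beside 7.63%, 9.14% and 12% of all genes. At the same limit ELOVL5 was the single member higher in MC, and 0 were higher in M222 and M512, beside 9.23%, 9.97% and 12.2% of all genes. With DESeq2, 8 sterol and 3 fatty acid members were called lower in MC (2.86% of all genes), 4 and 5 in M222 (3.81%), and 5 and 5 in M512 (6.46%).

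**Figure D1:**
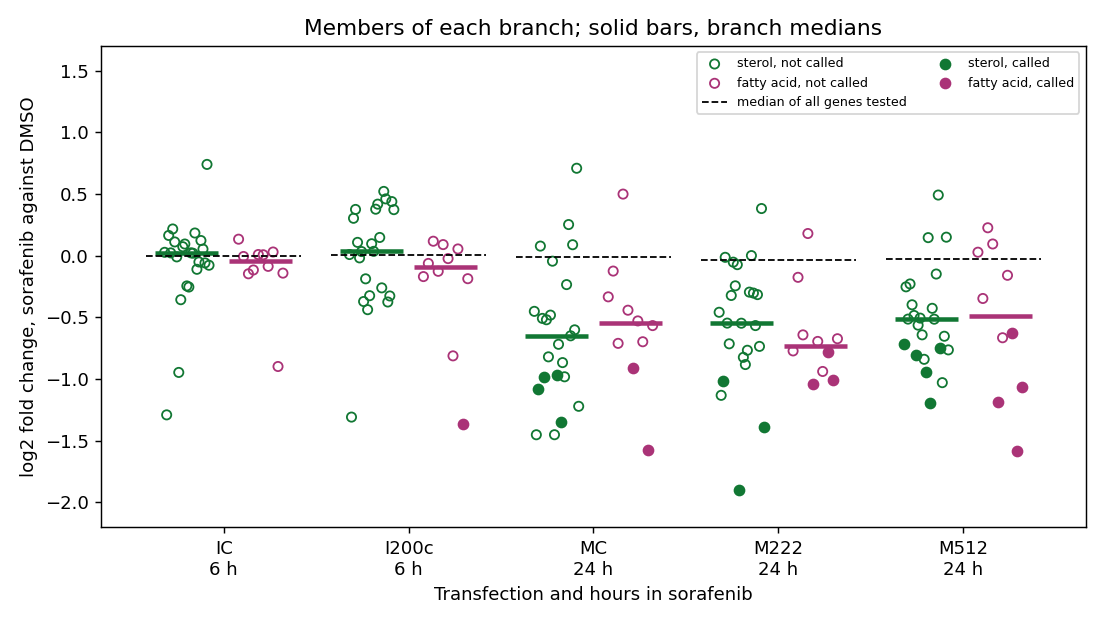
The log2 fold change of sorafenib against DMSO (y axis) is plotted for each tested member of the sterol branch (green, 23 genes) and the fatty acid branch (purple, 10 genes) in the 5 transfections (x axis), with filled points for members called by edgeR, solid bars for branch medians and dashed lines for the median of all genes. The branch medians sit at 0.02 to 0.04 (sterol) and -0.09 to -0.05 (fatty acid) at 6 h, and between -0.73 and -0.49 at 24 h.

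The separation of single libraries went further than the calls. In MC all 3 sorafenib libraries lay below all 3 DMSO libraries for 12 of 23 sterol (52.2%) and 7 of 10 fatty acid members (70%), beside 11.9% of all genes. In M222 it was 11 and 6, beside 13.1%, and in M512 9 and 4, beside 15.2%. Of the 33 members tested, 24 had a log2 fold change below 0 in all 3 transfections of 24 h (29.5% of all genes), 9 had separated libraries in all 3 (2.67%), and 14 were called lower in at least 1 (5.49%). GPAM was the single member called in all 3 (0.272% of all genes), and 5 were called in 2 of them (MVK, MSMO1, DHCR7, FASN and ELOVL6). No difference between the branches was tested, since the members were chosen by name and are not replicates. The summed level of the hepatocyte markers moved in the same direction, while single markers did not all do so. The sum was 8426 to 9675 CPM in MC_DMSO and 7112 to 8330 in MC_sorafenib, and 12088 to 13058 in M512_DMSO and 7178 to 9884 in M512_sorafenib, while in M222 the ranges overlapped (8017 to 10452 and 6549 to 8027 CPM). The group mean was lower with sorafenib for 7 of the 8 markers in MC, 8 in M222 and 6 in M512. AHSG was the one higher in MC (1218 and 1297 CPM with DMSO and sorafenib), and APOA1 (1026 and 1267 CPM) and FGB (132 and 169 CPM) were higher in M512. KRT19 of bile duct cells went from 434 ± 112 to 307 ± 73.2 CPM (mean ± SD, n = 3) in MC, where libraries overlapped, from 428 ± 24.7 to 312 ± 23.3 CPM in M222 without overlap, and from 339 ± 45.1 to 301 ± 7.41 CPM in M512 with overlap. Their part in the result was not tested. In bulk libraries, fewer cells of a kind and less RNA per cell cannot be told apart.

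**Figure D2:**
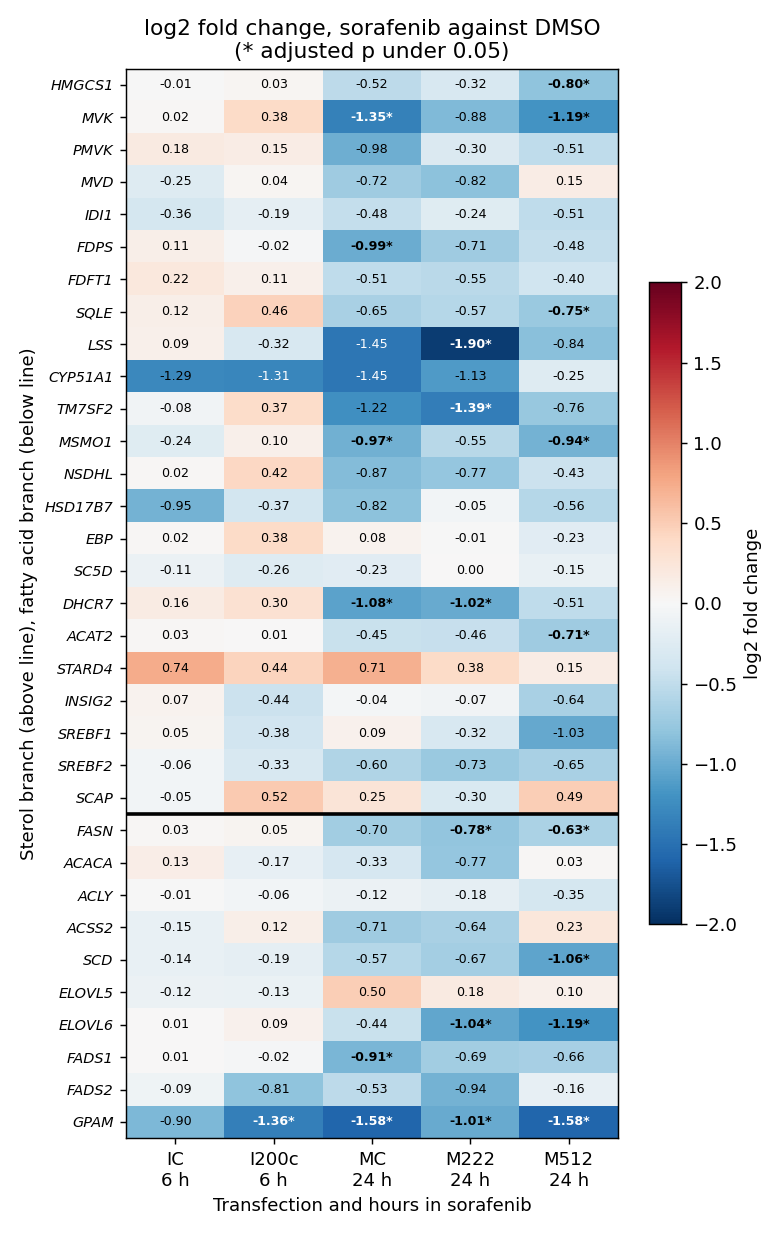
Each cell gives the log2 fold change of sorafenib against DMSO for a member (row) in a transfection (column), coloured from blue (lower with sorafenib) to red (higher), with an asterisk for an edgeR adjusted p under 0.05. Blue fills most of the 24 h columns in both branches, whereas at 6 h the GPAM row is the one that holds a call (-1.36 in I200c).

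The mevalonate steps build the isoprenoid units from acetyl-CoA. MVK, mevalonate kinase (ENSG00000110921, chromosome 12, 109573255 to 109598125), was at 100.5, 42.1 and 94.4 CPM in the 3 MC_DMSO libraries and at 40.3, 33.7 and 18.9 CPM in the 3 MC_sorafenib libraries. The groups did not overlap, although the second DMSO library came close to the first sorafenib library. The fall was called in MC (log2 fold change -1.35, SE 0.32, edgeR adjusted p 0.0204) and in M512 (log2 fold change -1.19, SE 0.32, edgeR adjusted p 0.0172). In M512 its level went from 73.3, 76 and 68.8 CPM to 37.5, 42.8 and 17.9 CPM, again without overlap. M222 showed 58.8, 60.9 and 79.4 CPM in DMSO and 34.3, 37.9 and 36.2 CPM in sorafenib, a separation that was not called (log2 fold change -0.88, SE 0.32, edgeR adjusted p 0.113). At 6 h the 12 libraries lay between 23.2 and 54.3 CPM with the drug groups overlapping DMSO. The call in MC was lost in 3 of 6 fits that left out 1 library, with an adjusted p of up to 0.178 without MC_sorafenib replicate 3, and in M512 in 2 of 6.

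FDPS, farnesyl diphosphate synthase (ENSG00000160752, chromosome 1, 155308748 to 155320666), had 154, 117 and 165 CPM in MC_DMSO and 55.3, 94.9 and 69.7 CPM in MC_sorafenib, with no overlap (log2 fold change -0.99, SE 0.22, edgeR adjusted p 0.013). In M222 the libraries were at 132, 139.7 and 139.5 CPM and 85.9, 100.2 and 65.1 CPM, also apart, but without a call (log2 fold change -0.71, SE 0.22, edgeR adjusted p 0.0605). In M512 they overlapped, with 144, 135 and 128 CPM in DMSO and 82.5, 128 and 87.8 CPM in sorafenib. The second sorafenib library was the high one there. The 6 h libraries held 88.4 to 124 CPM. Leaving out 1 library ended the MC call in 4 of 6 fits (adjusted p of up to 0.116 without MC_sorafenib replicate 1).

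HMGCS1, an early synthase of the mevalonate route (ENSG00000112972, chromosome 5, 43287470 to 43313512), was lowered in M512, from 226, 228 and 253 CPM to 120.1, 153 and 143 CPM (log2 fold change -0.80, SE 0.17, edgeR adjusted p 0.00368). This call held in all 6 fits that left out a library. In MC the libraries stood apart too, at 279.7, 255 and 228 CPM against 150.1, 203 and 179 CPM, without a call (log2 fold change -0.52, SE 0.17, edgeR adjusted p 0.105). M222 had the smallest gap, 197, 227 and 182 CPM against 163, 168 and 155 CPM (log2 fold change -0.32, SE 0.17, edgeR adjusted p 0.315). At 6 h HMGCS1 was nearly level, with a log2 fold change of -0.01 in IC and 0.03 in I200c. The other members of these steps, PMVK, MVD and IDI1 (the kinase, decarboxylase and isomerase that follow), were not called in any comparison. Their log2 fold changes at 24 h ran from -0.98 for PMVK in MC to 0.15 for MVD in M512. Over the 6 mevalonate members the median was -0.85 in MC, -0.52 in M222 and -0.51 in M512, beside 0.01 in IC and 0.03 in I200c.

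Squalene is then made, oxidised and closed to lanosterol. SQLE, squalene epoxidase, fell in M512 (log2 fold change -0.75, SE 0.22, edgeR adjusted p 0.0287) from 176, 130.4 and 134 CPM to 106, 101 and 61.3 CPM. Its libraries were separated in MC and M222 as well, with log2 fold changes of -0.65 and -0.57 that were not called. LSS, lanosterol synthase, had the lowest fitted value of all members, -1.90 in M222 (SE 0.55, edgeR adjusted p 0.0474). It rested on uneven libraries, 22.7, 26 and 23.4 CPM in DMSO against 0.644, 16.5 and 3.26 CPM in sorafenib, and without M222_sorafenib replicate 2, the high library, the value moved to -3.65, whereas it was -1.27 without replicate 1. The call was lost in 5 of 6 such fits. In MC LSS was at 49, 32.7 and 57 CPM against 14.1, 20.7 and 15.9 CPM, apart but not called (edgeR adjusted p 0.129). FDFT1, squalene synthase, was separated in all 3 transfections with log2 fold changes of -0.51, -0.55 and -0.40 in MC, M222 and M512, and was called in none.

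From lanosterol, 8 members carry the demethylations, reductions and the isomerisation that lead to cholesterol. MSMO1, the C4-methylsterol oxidase (ENSG00000052802, chromosome 4, 165327667 to 165343164), was at 102, 80.6 and 79 CPM in MC_DMSO and 36.8, 43.3 and 53.6 CPM in MC_sorafenib (log2 fold change -0.97, SE 0.24, edgeR adjusted p 0.0253). In M512 it went from 109.6, 108 and 127 CPM to 64.4, 41.8 and 76.4 CPM (log2 fold change -0.94, SE 0.23, edgeR adjusted p 0.0107). Neither pair of groups overlapped. M222 overlapped by 1 library, with 102, 60.9 and 81.1 CPM in DMSO and 61.7, 58.3 and 47.8 CPM in sorafenib. The 6 h libraries spanned 37 to 61.5 CPM, with drug and DMSO interleaved. The MC call was lost in 5 of 6 fits that left out a library (adjusted p of up to 0.159 without MC_sorafenib replicate 1), and the M512 call in 2 of 6.

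DHCR7, the reductase of the last step on one arm of the route (ENSG00000172893, chromosome 11, 71428193 to 71452868), fell in MC from 68.8, 78.5 and 132 CPM to 41.4, 55 and 35.4 CPM (log2 fold change -1.08, SE 0.26, edgeR adjusted p 0.0217). The third DMSO library stood far above the other two, and without it the adjusted p was 0.232. In M222 DHCR7 was at 101, 75.6 and 115 CPM and 54.1, 43.5 and 46.9 CPM (log2 fold change -1.02, SE 0.26, edgeR adjusted p 0.0216), without overlap. M512 showed 76.5, 58.2 and 65.1 CPM against 32.4, 59.4 and 51.9 CPM, which overlapped and was not called. At 6 h the range was 32.9 to 69.7 CPM. TM7SF2, a sterol C14-reductase, was called in M222, from 21.9, 43 and 38.8 CPM to 7.85, 21.3 and 11 CPM (log2 fold change -1.39, SE 0.40, edgeR adjusted p 0.0425), a call lost in 4 of 6 fits without 1 library.

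Some late-pathway enzymes did not follow. EBP, the sterol isomerase, had log2 fold changes of 0.08 in MC, -0.01 in M222 and -0.23 in M512. SC5D, the lathosterol desaturase, had -0.23, 0.000974 and -0.15. NSDHL and HSD17B7, which finish removal of the C4 methyl groups, were below 0 in all 3 with values from -0.87 for NSDHL in MC to -0.05 for HSD17B7 in M222, and neither was called. CYP51A1, at its low counts, had -1.45 in MC with an SE of 1.25. ACAT2, which condenses acetyl-CoA units in the cytosol ahead of HMGCS1, was left out of the medians of the mevalonate members given above. It fell in M512 from 357 ± 13.7 to 223 ± 41.1 CPM (mean ± SD, n = 3, log2 fold change -0.71, SE 0.18, edgeR adjusted p 0.0107) and was separated in MC and M222. STARD4, a sterol carrier, stood above 0 in all 5 comparisons, from 0.15 in M512 to 0.74 in IC, and was not called.

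**Figure D3:**
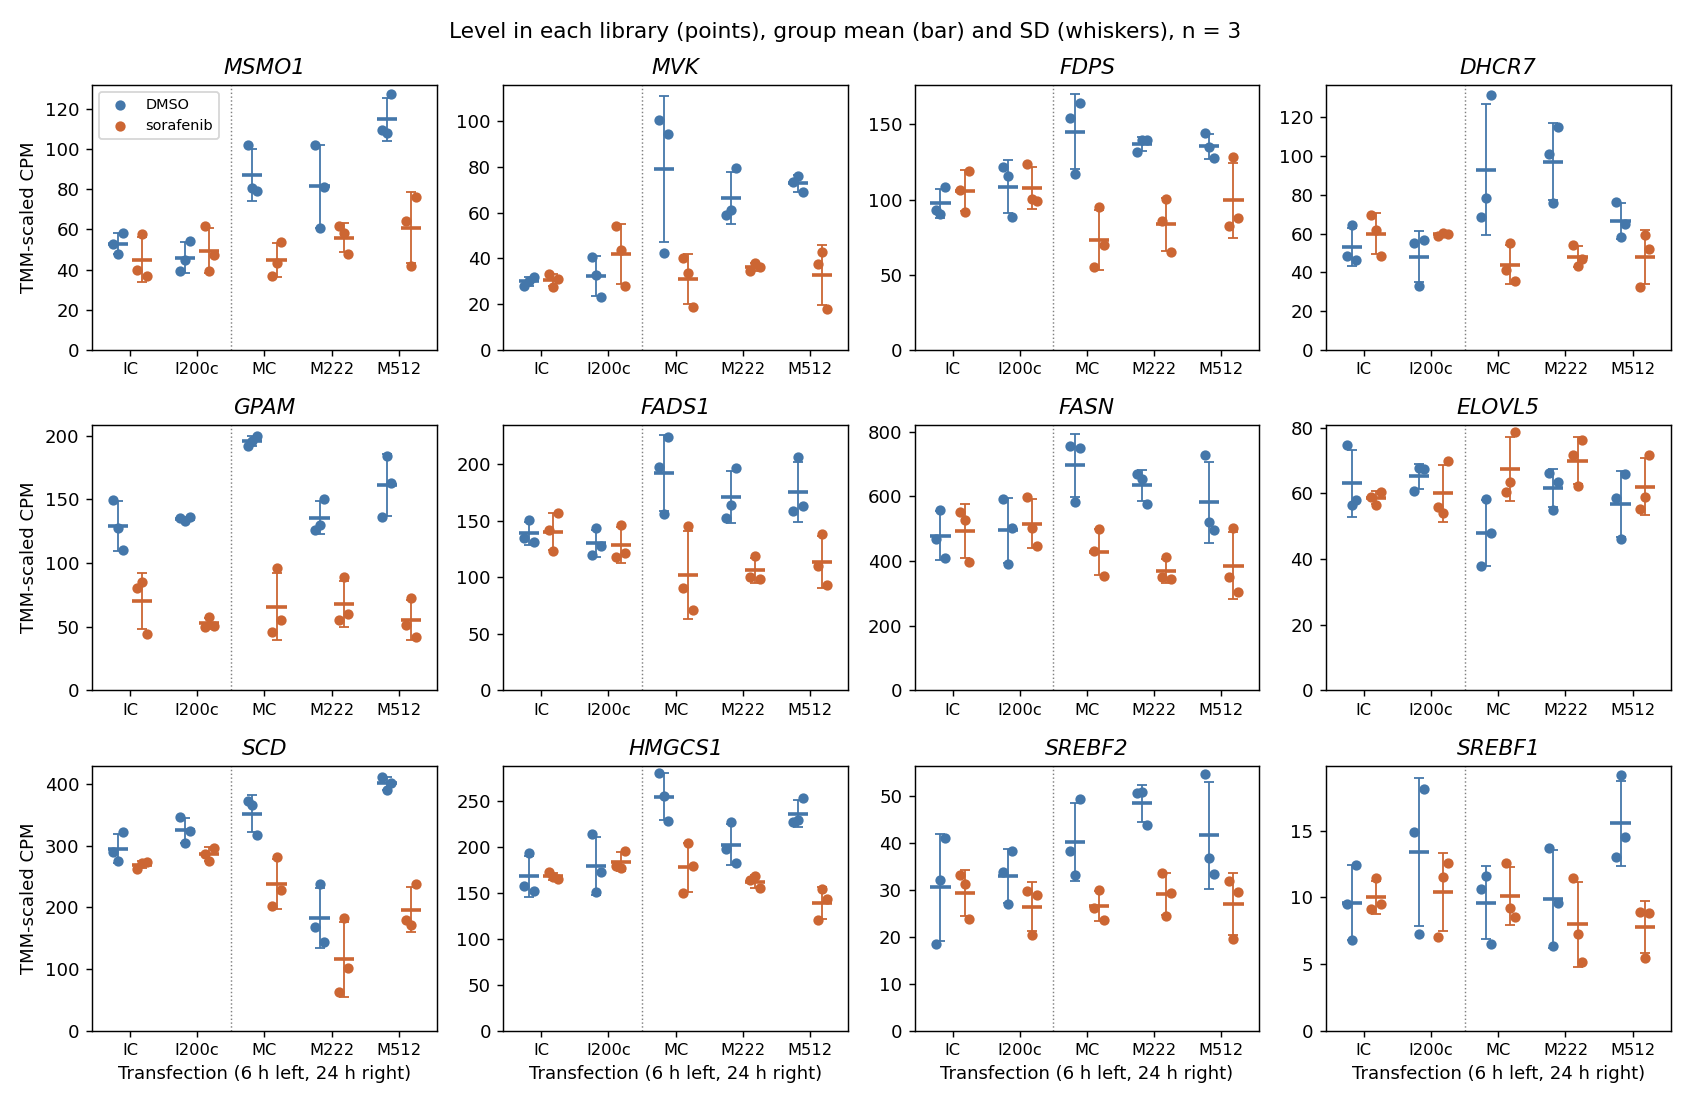
The level in TMM-scaled CPM (y axis) is shown for 12 members in each of the 30 libraries, by transfection (x axis, 6 h left and 24 h right of the dotted line), with DMSO in blue and sorafenib in orange, and bars and whiskers for the mean and SD of 3 libraries. The MC sorafenib libraries lie below the MC DMSO libraries for every gene shown except SREBF1, which overlaps, and ELOVL5, which lies above, and only GPAM (44.5 to 84.8 CPM in IC_sorafenib) and SCD are also apart at 6 h in both transfections.

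GPAM was called in 4 of the 5 transfections, more than any other member. In IC GPAM (ENSG00000119927, chromosome 10, 112149865 to 112215377) was at 149.5, 127 and 109.9 CPM with DMSO and 80.2, 84.8 and 44.5 CPM with sorafenib. These did not overlap, but were not called by edgeR (log2 fold change -0.90, SE 0.20, edgeR adjusted p 0.117), while DESeq2 called them. In I200c the levels were 136, 133 and 136 CPM and 49.9, 57.5 and 50.2 CPM (log2 fold change -1.36, SE 0.20, edgeR adjusted p 0.000554). In MC GPAM fell from 192, 195 and 200.1 CPM to 45.9, 95.7 and 55.4 CPM (log2 fold change -1.58, SE 0.25, edgeR adjusted p 0.000833). M222 had 126, 130.2 and 150.1 CPM and 55.1, 88.6 and 59.6 CPM (log2 fold change -1.01, SE 0.25, edgeR adjusted p 0.0199). M512 had 136, 184 and 163 CPM and 51.4, 72.8 and 41.7 CPM (log2 fold change -1.58, SE 0.25, edgeR adjusted p 0.000212). Every sorafenib library was thus below every DMSO library of its own transfection in all 5. The calls in I200c, MC and M512 held in each of 6 fits that left out a library, whereas that in M222 was lost in 3 of 6. Between 6 h and 24 h in the controls, the change differed by -0.71 (SE 0.35, edgeR adjusted p 0.384), which was not called.

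FASN, fatty acid synthase itself (ENSG00000169710, chromosome 17, 82078338 to 82098294), was lowered in M222 from 671, 654 and 578 CPM to 352, 413 and 344 CPM (log2 fold change -0.78, SE 0.20, edgeR adjusted p 0.0252). In M512 the levels were 727, 521 and 497 CPM and 350.2, 503 and 304 CPM, which overlapped by 1 library (log2 fold change -0.63, SE 0.20, edgeR adjusted p 0.0485). MC libraries were separated, at 757, 584 and 749.7 CPM and 430.0, 499.5 and 355 CPM, just outside the threshold (log2 fold change -0.70, SE 0.20, edgeR adjusted p 0.0643). At 6 h FASN stood at 390.4 to 598 CPM, with a log2 fold change of 0.03 in IC and 0.05 in I200c. The calls in M222 and M512 were each lost in 5 of 6 fits that left out a library.

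FADS1, the delta-5 desaturase of polyunsaturated fatty acids (ENSG00000149485, chromosome 11, 61799627 to 61829318), fell in MC from 197, 156 and 224 CPM to 90, 145 and 70.7 CPM (log2 fold change -0.91, SE 0.23, edgeR adjusted p 0.0314). In M222 the libraries were at 152, 164 and 197 CPM and 100.05, 119 and 98.8 CPM, and in M512 at 158, 206 and 163 CPM and 109.6, 138 and 93.1 CPM. Both were separated, and neither was called (edgeR adjusted p 0.0868 and 0.0668). The 6 h libraries spanned 118 to 157 CPM, and the MC call was lost in 4 of 6 fits without 1 library (adjusted p of up to 0.248 without MC_sorafenib replicate 3). ELOVL6, which extends the products of FASN, fell in M222 (log2 fold change -1.04, SE 0.30, edgeR adjusted p 0.0483) and M512 (log2 fold change -1.19, SE 0.31, edgeR adjusted p 0.014), at group means of 26.5 ± 1.36 and 12.9 ± 2.18 CPM (SD, n = 3) in M222. Its M222 call was lost in all 6 fits without 1 library.

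ELOVL5, an elongase of polyunsaturated fatty acids (ENSG00000012660, chromosome 6, 53267398 to 53349179), ran the other way. It was at 38, 58.1 and 47.9 CPM in MC_DMSO and at 60.4, 63.4 and 78.7 CPM in MC_sorafenib, where the sorafenib libraries were all above and the difference was not called (log2 fold change 0.50, SE 0.21, edgeR adjusted p 0.215). In M222 and M512 the groups overlapped, with log2 fold changes of 0.18 and 0.10. The enzymes of acetyl-CoA and malonyl-CoA supply changed little or unevenly. ACLY, ATP-citrate lyase, had -0.12, -0.18 and -0.35 in MC, M222 and M512. ACACA, acetyl-CoA carboxylase, had -0.33, -0.77 and 0.03, and ACSS2, acetyl-CoA synthetase, -0.71, -0.64 and 0.23. None of these was called. FADS2, the delta-6 desaturase, was below 0 in all 5 comparisons and called in none.

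The regulators were not called in any sorafenib comparison. SREBF2 (ENSG00000198911, chromosome 22, 41833105 to 41907306) was at 38.3, 33.2 and 49.5 CPM in MC_DMSO and 26.1, 29.9 and 23.6 CPM in MC_sorafenib (log2 fold change -0.60, SE 0.25, edgeR adjusted p 0.219). In M222 it was at 50.7, 50.9 and 43.9 CPM and 33.6, 24.5 and 29.4 CPM (log2 fold change -0.73, SE 0.25, edgeR adjusted p 0.1). In M512 the values were 54.8, 36.9 and 33.5 CPM and 32, 19.5 and 29.6 CPM (log2 fold change -0.65, SE 0.25, edgeR adjusted p 0.105). The sorafenib libraries were thus below the DMSO libraries in all 3 transfections of 24 h, and overlapped them at 6 h (18.4 to 41 CPM).

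SREBF1 (ENSG00000072310, chromosome 17, 17810399 to 17837002) held 5.15 to 19.1 CPM over all 30 libraries. In MC it was at 10.6, 11.6 and 6.46 CPM with DMSO and 12.6, 9.17 and 8.55 CPM with sorafenib (log2 fold change 0.09, SE 0.41, edgeR adjusted p 0.944). In M512 it was at 13, 19.1 and 14.5 CPM and 8.93, 5.48 and 8.82 CPM, which did not overlap (log2 fold change -1.03, SE 0.41, edgeR adjusted p 0.111). The gap between the M512 and MC changes was -1.12 (SE 0.57, edgeR adjusted p 0.965). SCAP had 0.25, -0.30 and 0.49 and INSIG2 -0.04, -0.07 and -0.64 in MC, M222 and M512. The SCAP libraries were uneven, from 50.4 to 168 CPM within MC_sorafenib alone.

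SREBPs bind sterol regulatory elements in promoters, often beside a CCAAT box, which the factor NF-Y binds. RefSeq promoters (GRCh38.p14, 250 bases before to 50 after a gene's start) were matched for 21 of 24 sterol and 10 of 11 fatty acid members; ACAT2, FDFT1, SQLE and FASN had no entry. The element TCACNCCAC, on either strand, was found in 1 of 21 sterol genes (SREBF2, 133 bases before its start) and 0 of 10 fatty acid genes, beside 1.39% of 27305 genes. CCAAT, on either strand, was in 16 of 21 sterol (76.2%) and 7 of 10 fatty acid genes (70%), beside 39.7% of all genes and 43.7% of the 9155 genes with at least 300 counts. CACGTG, which SREBPs can bind too, was in 4 of 21 and 1 of 10, beside 8.77% of all genes and 12.9% of those with 300 counts. Stretches are shown, on the plus strand as given and 5′ to 3′, for SREBF2, whose capitals mark the sterol element, and for called members and a member that did not follow, whose capitals mark CCAAT or its reverse complement ATTGG.
SREBF2 (chr22:41832932-41833020): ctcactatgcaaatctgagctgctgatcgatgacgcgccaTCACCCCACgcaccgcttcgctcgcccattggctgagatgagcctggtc
MSMO1 (chr4:165327563-165327666): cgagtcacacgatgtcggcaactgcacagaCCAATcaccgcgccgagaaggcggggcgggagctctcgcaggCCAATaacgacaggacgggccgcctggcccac
TM7SF2 (chr11:65111768-65111832): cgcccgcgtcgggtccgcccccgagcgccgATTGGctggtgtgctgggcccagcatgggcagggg
EBP (chrX:48521708-48521798): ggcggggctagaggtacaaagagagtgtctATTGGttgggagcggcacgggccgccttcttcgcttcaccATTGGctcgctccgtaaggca
MSMO1 and TM7SF2, which were among the members called lower at 24 h, hold 4 boxes and 1 box in their windows. EBP, which was not called, holds 3. The stretches show 2 boxes of MSMO1, 1 of TM7SF2 and 2 of EBP. SREBF2 carries a CCAAT box of its own as ATTGG, just downstream of the marked element. A match of letters is a description and not a binding site.

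Summed over each branch, the 24 h loss was set against a higher DMSO level than at 6 h. The sterol branch summed to 1331 ± 83.6 CPM in IC_DMSO and 1373 ± 43.3 CPM in IC_sorafenib (SD, n = 3, here and below). In MC it summed to 1905 ± 219.97 CPM with DMSO and 1279 ± 69.2 CPM with sorafenib. M222 gave 1777 ± 65.8 and 1261 ± 42.01 CPM, M512 1932 ± 74.8 and 1354 ± 104 CPM, and I200c 1297 ± 64.4 and 1416 ± 46.1 CPM. In I200c every sorafenib sum was above every DMSO sum, narrowly at the closest (1362.9 and 1362.4 CPM). The mean sorafenib sums of 24 h thus lay at 1261 to 1354 CPM, beside 1297 and 1331 CPM in the DMSO groups of 6 h. The fatty acid branch summed to 1370.1 ± 45.9 and 1299 ± 79.2 CPM in IC, 1415 ± 132 and 1289 ± 53.6 CPM in I200c, and 1771 ± 123 and 1141 ± 164 CPM in MC, with DMSO given first. It was at 1465 ± 60.5 and 934 ± 142 CPM in M222 and at 1634 ± 122 and 1031 ± 89.7 CPM in M512. Its sorafenib means of 24 h were therefore below all DMSO means. The ratio of the sterol to the fatty acid sum was higher on average with sorafenib in every transfection. It went from 0.973 ± 0.0821 to 1.06 ± 0.0873 in IC, 0.919 ± 0.0446 to 1.10 ± 0.0463 in I200c, 1.07 ± 0.0567 to 1.13 ± 0.102 in MC, 1.21 ± 0.0820 to 1.37 ± 0.169 in M222 and 1.18 ± 0.0515 to 1.31 ± 0.0159 in M512, and was not tested. Abundant members weigh most in these sums. At 6 h GPAM, of the fatty acid branch, went from 129 to 69.8 CPM in IC and from 135 to 52.5 CPM in I200c. SCD went from 295 to 269 CPM in IC and from 325 to 286 CPM in I200c. The mean sterol sums of 6 h were higher with sorafenib in both. What part each of these had in the ratio was not tested. 

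**Figure D4:**
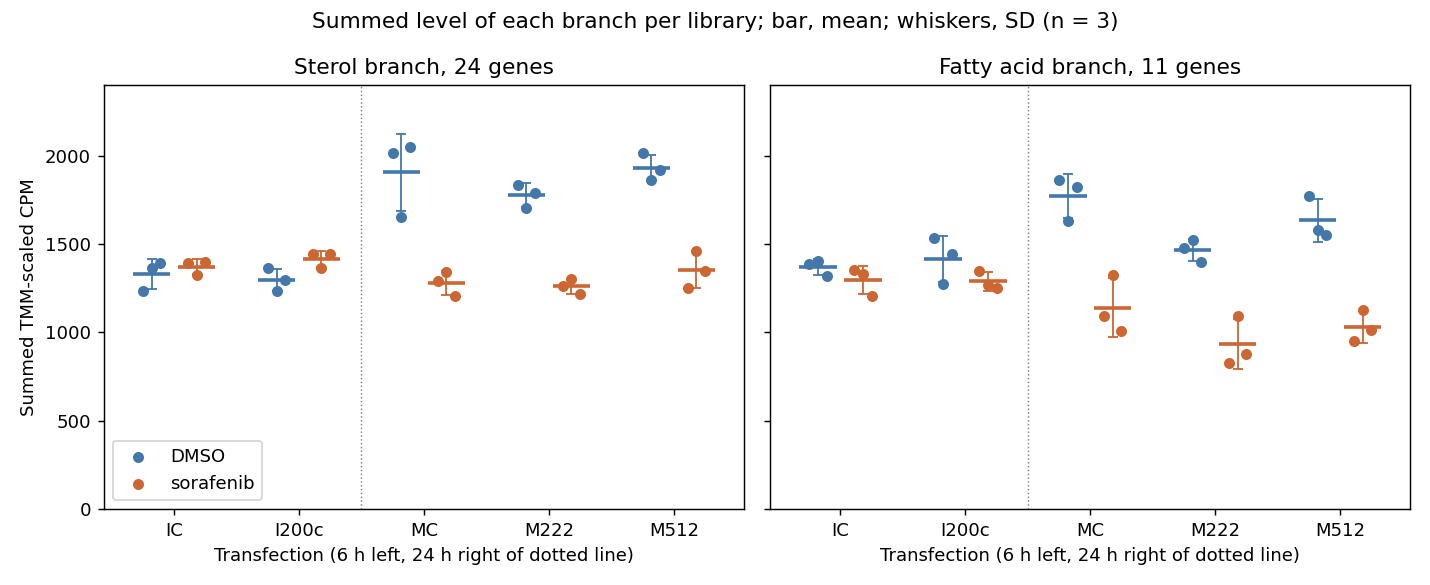
The summed TMM-scaled CPM (y axis) of the 24 sterol genes (left) and the 11 fatty acid genes (right) is plotted for each library by transfection (x axis), DMSO in blue and sorafenib in orange, with the mean and SD of 3 libraries. At 24 h every sorafenib library lies below every DMSO library of its transfection in both branches, and the DMSO means of the sterol branch are 1777 to 1932 CPM, above the 1297 to 1331 CPM of 6 h.

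Gene by gene, 10 of 23 sterol and 5 of 10 fatty acid members had all 3 MC_DMSO libraries above all 3 IC_DMSO libraries, beside 10.8% of all genes, and 0 of either branch had them all below. The median log2 ratio of the means was 0.60 in the sterol branch and 0.42 in the fatty acid branch, beside -0.00338 over 12500 genes. The largest were MVK (1.40), LSS (1.23), CYP51A1 (0.96) and PMVK (0.91), while INSIG2 (-0.50) and ELOVL5 (-0.39) were lower. MC_sorafenib against IC_DMSO had medians of -0.20 and -0.17, beside -0.02 over all genes, with 1 of 23 sterol members above and 1 below without overlap, and 0 of 10 fatty acid members above and 1 below, where 11.4% of all genes were above and 10.8% below. These levels come from different control oligonucleotides and culture times and were not tested. In the test of whether the sorafenib effect differed between the controls of 24 h and 6 h, 0 of 33 members were called by edgeR, beside 0.216% of all genes. At an unadjusted p under 0.05, 15 members had a lower and 1 a higher value, beside 6.5% and 7.17% of all genes. DESeq2 called 4, namely FDFT1, LSS, FDPS and DHCR7, beside 2.63% of all genes. The median difference was -0.54 in the sterol branch and -0.49 in the fatty acid branch, beside -0.03 over all genes. LSS (log2 fold change -1.58, SE 0.36, edgeR adjusted p 0.0727) and FDPS (log2 fold change -1.13, SE 0.28, edgeR adjusted p 0.103) were closest to the threshold of those 4.

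The oligonucleotides themselves were compared with their controls next. Mature miRNAs pair with messenger RNA mainly through bases 2 to 8, the seed, in capitals here (RefSeq, GRCh38.p14).
miR-200c-3p: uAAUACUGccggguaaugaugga
miR-222-5p: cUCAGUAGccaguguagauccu
miR-512-3p: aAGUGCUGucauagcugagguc
The 3 seeds differ. The matching site on a transcript, written as DNA, is CAGTATT for miR-200c-3p. It is CTACTGA for miR-222-5p. For miR-512-3p it reads CAGCACT. In the 3′ untranslated region of the main transcript (GENCODE 44), 3 of 35 members held the site of miR-200c-3p (ACACA, SCD and FADS1; 8.57%, beside 19.5% of 10592 genes). For miR-512-3p it was 5 (MVK, HSD17B7, SC5D, DHCR7 and ACACA; 14.3%, beside 23.1%), and for miR-222-5p 6 (IDI1, HSD17B7, SC5D, SCD, FADS1 and GPAM; 17.1%, beside 10.6%).

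No oligonucleotide moved a member past the threshold. By edgeR 0 of 33 members were called in I200c against IC, where 0.0157% of all genes were called with DMSO and 0% with sorafenib. The count was also 0 in M222 against MC (0% and 0% of all genes) and in M512 against MC (0.634% and 0.355%). At an unadjusted p under 0.05 there were 1 and 0 members in I200c (5.24% and 2.14% of all genes), 4 and 3 in M222 (5.56% and 6.04%), and 4 and 4 in M512 (10.5% and 11.1%), with DMSO and with sorafenib. The shares of members in M512 were near those of all genes. DESeq2 called 1 member in the 6 comparisons, SCD in M222 with sorafenib, where it called 0.339% of all genes, against 0 to 2.03% in the other 5 (0.0393% in I200c and 0.259% in M222 with DMSO). The interactions of oligonucleotide and sorafenib held 0 called members, 0 at an unadjusted p under 0.05 and 0 by DESeq2, beside 0% (I200c), 0% (M222) and 0.00755% (M512) of all genes called by edgeR, 3.24%, 1.96% and 5.04% at an unadjusted p under 0.05, and 0.0314%, 0.00755% and 0.113% by DESeq2. These 3 tests share their control libraries with the comparisons above.

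SCD, the stearoyl-CoA desaturase that makes monounsaturated fatty acids (ENSG00000099194, chromosome 10, 100347233 to 100364826), is described because DESeq2 called it in M222 against MC with sorafenib. It holds 2 sites of miR-222-5p, shown on the plus strand of GRCh38 with the site in capitals.
SCD site 1 (chr10:100360991-100361017): tgtttattaaCTACTGAataatgctac
SCD site 2 (chr10:100363939-100363965): acctgagaccCTACTGAagtggctggt
With DMSO SCD was at 372, 365 and 317 CPM in MC and at 169, 237 and 144 CPM in M222. With sorafenib the levels were 203, 282 and 228 CPM in MC and 61.8, 182 and 102 CPM in M222. The M222 libraries were below the MC libraries in both, with a log2 fold change of -0.96 with DMSO (SE 0.27, edgeR adjusted p 0.356) and -1.07 with sorafenib (SE 0.27, edgeR adjusted p 0.398). DESeq2 called the second (adjusted p 0.0403), and edgeR with no filter on low counts called both (0.00868 and 0.00189). That unfiltered fit also called TM7SF2 in both treatments (log2 fold changes -1.09 and -1.26) and LSS with sorafenib (-1.40). Neither TM7SF2 nor LSS holds a site of miR-222-5p, and the LSS libraries of M222 with sorafenib were uneven, as given above. Whether holders of a site differed from other members was not tested. For SCD, the second M222 library was the highest of its group in both treatments. In M512, whose seed has no site in SCD, the DMSO level was 411, 389 and 402 CPM, and sorafenib lowered it to 179.9, 171 and 238 CPM (log2 fold change -1.06, SE 0.27, edgeR adjusted p 0.0121). At 6 h SCD was at 275 to 346 CPM with DMSO and 262 to 297 CPM with sorafenib, separated within each transfection at small log2 fold changes (-0.14 and -0.19). The other holders of a miR-222-5p site were called in neither treatment by edgeR or DESeq2. GPAM was lower in M222 with DMSO (-0.55) and level with sorafenib (0.02), IDI1 was above 0 in both (0.27 and 0.51), and FADS1 was near 0 (-0.19 and 0.03). HSD17B7 and SC5D had values below 0 in both, of -0.79 and -0.03 and of -0.57 and -0.33, with SEs of 0.39 to 0.53.

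No member with a site of the other miRNAs was called either. For miR-512-3p, DHCR7, with 2 sites, had -0.48 with DMSO and 0.08 with sorafenib in M512 against MC, and SC5D, with 3 sites, had -0.24 and -0.16. MVK had -0.13 and 0.03. For HSD17B7 the group means in MC and M512 were 8.56 and 5.85 CPM with DMSO, and 4.82 and 4.06 CPM with sorafenib. Those of ACACA were 51.9 and 43.1 CPM with DMSO, and 41.1 and 45 CPM with sorafenib. For the miR-200c-3p inhibitor, SCD had 0.15 and 0.10, ACACA 0.07 and -0.23, and FADS1 -0.08 and -0.11.

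Genes around the members were taken from 5 lists of the same pathways. Of 10 genes of SREBP processing and sterol sensing, 0 were called lower and 1, 0 and 2 higher in MC, M222 and M512 (1.8%, 2.82% and 5.34% of all genes), with medians of 0.44, 0.41 and 0.36, so that most stood above 0 while the enzymes stood below. TRIB1, a pseudokinase linked to hepatic lipogenesis, rose in MC (log2 fold change 1.23, SE 0.24, edgeR adjusted p 0.00508) and M512 (log2 fold change 1.04, SE 0.24, edgeR adjusted p 0.00645), and SPRING1, which supports the cleavage of SREBP by its Golgi protease, rose in M512 (log2 fold change 1.02, SE 0.23, edgeR adjusted p 0.00554). In M512 SPRING1 was at 40.2, 25.6 and 36.9 CPM with DMSO and 74.9, 68 and 69.7 CPM with sorafenib. Its mean in M512_DMSO, 34.2 CPM, was the lowest of the DMSO groups (62.4 CPM in MC, 65.2 in M222, 83.8 in IC and 107.7 in I200c). In I200c it went down with sorafenib, to 73.5 CPM. MBTPS1, that Golgi protease, was not called. Its means with DMSO and sorafenib were 83.4 and 54.9 CPM in MC, 76.6 and 56 CPM in M222, and 74.9 and 70.7 CPM in M512. Of the list of other sterol and isoprenoid genes, TMEM97, a sterol-regulated membrane protein, fell in M222 (log2 fold change -0.84, SE 0.22, edgeR adjusted p 0.0303).

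Of 22 other fatty acid and triglyceride genes, 20 were tested, with 1 called lower in MC, 0 in M222 and 3 lower and 1 higher in M512, beside 0.793%, 1.56%, 4.62% and 5.34% of all genes. DGAT2, which completes triglycerides, fell in MC (log2 fold change -0.98, SE 0.21, edgeR adjusted p 0.00804). ACSL4, an acyl-CoA synthetase of arachidonic acid, had the largest called change in M512 (log2 fold change -1.36, SE 0.35, edgeR adjusted p 0.0138). Of 8 export genes and targets of the liver X receptor, a sterol sensor, 7 were tested, and the sterol transporter subunits ABCG8 and ABCG5 gave the calls. ABCG8 was higher in I200c (log2 fold change 1.44, SE 0.38, edgeR adjusted p 0.0483), where 0.911% of all genes were called higher. ABCG5 was lower in M512 (log2 fold change -1.67, SE 0.43, edgeR adjusted p 0.0131), where 4.62% were called lower. At 24 h ABCG8 was not called, and its means were lower with sorafenib. With DMSO given first, they were 7.66 and 4.66 CPM in MC, 8.28 and 2.67 CPM in M222, and 11.4 and 5.56 CPM in M512. Of 9 genes of sterol trafficking and esterification, 0 were called in any sorafenib comparison by edgeR. Over all genes, 0.00785% (IC) to 4.62% (M512) were called lower and 0.0314% to 5.34% higher. At an unadjusted p under 0.05, either direction counted, the list held 5 in M512, beside 3205 of 13244 genes. It held 1 in MC, beside 2232 genes, and 0 in IC, I200c and M222.

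Over the 30 libraries, the genes outside the members whose log2 CPM was most like HMGCS1 were C5 (Pearson's r 0.838), DDX17 (0.832) and SERPINF2 (0.831), among 6190 genes with a mean of at least 20 CPM. For FASN they were CLUHP3 (0.906), RASSF4 (0.904) and FGA (0.896). Among the members, FDFT1 was 0.70 and SQLE 0.68 with HMGCS1, and HMGCS1 with FASN was 0.75, while ELOVL5 was -0.47 and SCAP -0.29 with HMGCS1, and STARD4, MVD, EBP and FADS2 lay between -0.03 and 0.01. These values describe libraries that share treatments, time points and scaling.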

How the data were processed

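Messenger RNA of 30 HepG2 cultures was read with QuantSeq 3′ FWD libraries. The authors trimmed the reads, aligned them to GRCh38 with STAR (ENCODE settings, modified) and assigned them to genes with HTSeq-count, all within the Bluebee pipeline. The annotation release, the strand setting and whether molecular identifiers were used are not given in the sources used here. The deposited table holds raw counts for 60107 genes and 92 other rows with 3 counts in all, which were left out. The authors' normalised table was not used. Symbols and positions came from GENCODE 44 on GRCh38, perhaps not the release behind the counts; 56104 identifiers had a symbol.

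Genes passing filterByExpr were tested in edgeR 4.0.16 (R 4.3.3) by its quasi-likelihood F test with TMM factors and a coefficient for each group, in separate fits of 12 libraries (6 h, 12738 genes), 18 libraries (24 h, 13244 genes) and the 12 control libraries (12500 genes). Tests were two-sided, p-values were adjusted over all genes of a fit (Benjamini-Hochberg), and an adjusted p under 0.05 was called. The standard error (SE) is the log2 fold change divided by the square root of F. Levels are TMM-scaled CPM. DESeq2, other scales and filters, a replicate block and leaving out each library were the alternatives. The scripts were tested on simulated data.

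The members and all gene lists were chosen with earlier results of these data known. All 35 members could be named. Values per library were given for the 4 members of each branch with the lowest p in MC, for SREBF1, SREBF2 and INSIG1, and, after their values were seen, for HMGCS1, SCD and a few others. Of the related lists, the called member with the largest change per comparison was named, except for a result that is not reported here.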

Additional observations from a re-analysis of the deposited data

How the results depend on the processing

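No called member and no branch median of 24 h changed direction under the alternatives run, but on total counts the genes called higher turned from a majority to a minority of all calls in M222 (64.3% to 47.9%) and M512 (53.6% to 29.9%). Values of single members called with sorafenib and of branch medians were counted together. Of these, 297 stayed the same, which includes every branch median, and 79 did not. All 79 were calls of single members that were lost. Without a filter on low counts, members called lower numbered 7 (sterol) in MC and 1 (fatty acid) in IC, members called for an oligonucleotide 5 (SCD and TM7SF2 in both treatments and LSS with sorafenib, all in M222) and for time 6. Over all genes, 251 of 23336 were called lower there in MC and 29 of 22799 in IC. DESeq2 gave 8 sterol members in MC, 5 fatty acid members in M222, 1 in IC, 1 for an oligonucleotide and 4 for time. On total counts M222 had 5 sterol and 5 fatty acid members and M512 8 sterol members. Calls of lower genes rose over all genes too, from 207 to 326 of 13244 in M222 and from 612 to 1081 in M512. Fitting a transfection's libraries alone left 1 fatty acid member in MC, and 3 sterol and 2 fatty acid members in M512. Over all genes that called 70 of 12037 lower in MC and 444 of 11808 in M512. RLE factors and the stricter filter moved no count past 1.5 times. The causes were not tested.

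In 0 of 11 comparisons did all 3 same-numbered pairs of libraries correlate above 0.1, the limit set for pairing (correlations of -0.0909 to 0.198), so the numbers were not taken to pair them. All 3 correlations were above 0 in 4 comparisons, and in 1 of these, M222 against MC with DMSO (0.0954 to 0.140), each library correlated best with its own number, a hint from the data and not from the design. With a replicate block, MC had 5 sterol and 3 fatty acid members called lower, M222 5 and 3, and M512 6 and 5. Genes called lower in all numbered 174, 279 and 704 of 13244, beside 105, 207 and 612 without the block.

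Leaving out 1 library gave 0 to 5 sterol and 1 to 3 fatty acid members in MC, with 0 sterol members without MC_DMSO replicate 3 or MC_sorafenib replicate 3, and 1 without replicate 1 of either group. In M222 it gave 0 to 3 of each branch, with 0 of both without M222_DMSO replicate 3 or M222_sorafenib replicate 1 or 3, and 1 of both without M222_DMSO replicate 1 or 2. In M512 it gave 2 to 4 of each branch, with 2 of both without M512_DMSO replicate 3, 3 sterol members without M512_DMSO replicate 2 and 2 fatty acid members without M512_sorafenib replicate 1. In MC, 1 fatty acid member was left without replicate 1 or 3 of either group. Over all genes these fits called 17 to 243 lower in MC, 28 to 296 in M222 and 312 to 583 in M512. With every library the counts were 105, 207 and 612. Members called higher in I200c numbered 0 to 1 (1 without I200c_DMSO replicate 2), members called for an oligonucleotide 0 to 2 (SCD and LSS, without M222_sorafenib replicate 2), and for time 0 to 4 (3 without MC_DMSO replicate 2, 4 without MC_sorafenib replicate 2).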
